A study of Mus musculus with 60 samples.

Results

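The replication-dependent histone genes make the bulk of the H1, H2A, H2B, H3 and H4 proteins that package newly copied DNA. Their members were taken as the rows of the deposited gene count table whose symbol begins with Hist1h, Hist2h, Hist3h or Hist4h and whose mean level over all 60 libraries was at least 0.1 CPM (counts per 1000000 counts of a library). Of 35976 rows, 69 matched the name and 65 were kept: 5 of 6 H1 genes, 17 of 19 H2A, 18 of 19 H2B, all 12 H3 and all 13 H4. The 4 left out were Hist1h2br at 0.0898 CPM, Hist1h1t at 0.0302, Hist1h2aa at 0.00192 and Hist3h2a at 0.000768. Just inside the limit lay Hist1h2ba at 0.117 CPM and Hist1h2ah at 0.123. Hist1h2al and Hist3h2bb-ps are pseudogenes by their annotation or name.

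The study sequenced total RNA, depleted of ribosomal RNA, from the hippocampus of wild-type (WT) and App NL-G-F mice (NLGF), a knock-in line that carries familial Alzheimer's disease mutations in the App gene at its own locus. The letters NL, G and F stand for the Swedish, Arctic and Iberian mutations. Mice were 3, 8 or 24 weeks old, with 5 samples for each sex, age and genotype, 60 in all. The series' design text treats males and females as biological replicates, but no label ties a sample to an animal, and the p-values rest on the spread from sample to sample, part of which may be technical. The labels give no background strain, treatment or further allele for any group.

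The 53 libraries of ordinary depth held 17786578 to 35162084 counts, and 7 of the 10 NLGF libraries of week 3 held 54026870 to 73423252. These 7, called the deep libraries here, are kept apart from the 3 other NLGF libraries of that age throughout. They also differed in short noncoding RNAs. The neuronal brain RNA Bc1 averaged 2958 CPM in them against 25.6 in WT and 9.25 in the 3 other NLGF libraries of week 3. Depth and genotype cannot be told apart where the deep libraries are set against WT. NLGF week 3 male 2, a deep library, did not match its sex label, and NLGF week 8 female 1 has an age field of 3 weeks against a title of week 8, which was kept. In 3 libraries the abundant small nuclear RNA Rn7sk lay at 2647 to 3288 CPM and in every other library at 4684 CPM or more. They are WT week 3 male 5, NLGF week 3 male 1 and WT week 8 female 1, and results that rest on them are given with and without them. The neuronal genes Rbfox3 and Snap25 were present in every library, at 184 CPM or more and 931 CPM or more.

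Replication-dependent histone genes mostly lack introns, lie in clusters and are transcribed mainly in S phase. Their messenger RNAs end in a conserved stem-loop in place of a poly(A) tail. The stem-loop is bound by the protein Slbp, and cleavage after it is guided by the U7 small nuclear RNA. Adult neurons do not divide, and most dividing cells of the young hippocampus are neural progenitors of the dentate gyrus and glial precursors. Some members also give polyadenylated transcripts in cells that have left the cycle. Libraries made from total RNA can hold both forms, and gene counts do not separate them.

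Of the 65 members, 52 carry Hist1 names and lie on chromosome 13, 10 carry Hist2 names on chromosome 3, 2 carry Hist3 names on chromosome 11 and 1, Hist4h4, lies on chromosome 6 (GENCODE vM21 on GRCm38, the mm10 build). The stem-loop is shown for members from each side of the results below, since it is the feature that marks the class. Capitals mark the stem-loop, a stem of 6 base pairs that starts with GG around a loop of 4 bases that starts with TTT. The letters are those of the GENCODE vM21 transcripts, in the sense of the gene. Changes with age named beside them are those called in WT.
Hist1h1c, an H1 gene that fell with age (chr13:23739507-23739532, plus strand): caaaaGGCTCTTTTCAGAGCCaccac
Hist1h3c, an H3 gene that fell with age (chr13:23745042-23745067, minus strand): aaaaaGGCTCTTTTAAGAGCCaccta
Hist1h4d, an H4 gene that rose with age in WT (chr13:23581945-23581970, plus strand): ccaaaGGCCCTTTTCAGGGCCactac
Hist2h4, an H4 gene of the Hist2 cluster (chr3:96262934-96262959, minus strand): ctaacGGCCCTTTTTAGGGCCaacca
Hist2h2ac, an H2A gene of the Hist2 cluster (chr3:96220413-96220438, minus strand): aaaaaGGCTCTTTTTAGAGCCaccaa
Such a stem-loop was found within 100 bases of the stop codon in 41 members. Among members whose gene model runs 60 bases or more past the stop codon, 39 of 45 held it (86.7%), against 17 of 20480 other coding genes (0.083%). Its first base lay 22 to 59 bases after the stop codon, with a median of 32. The form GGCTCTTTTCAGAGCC was found in 24 members, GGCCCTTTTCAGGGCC in 7 and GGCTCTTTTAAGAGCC in 5. Gene models of the other members often end at or soon after the stop codon, so no stem-loop there says only that these letters are not in the model.

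RefSeq promoters, from 250 bases before to 50 after the start of transcription, were matched for 58 members (GRCm38.p6). The TATA box letters TATAAA, on either strand, were found in 58.6% of them and in 13.6% of all 32851 promoters. The letters CCAAT, on either strand, were found in 84.5% against 37.4%, and the octamer ATGCAAAT, on either strand, in 20.7% against 1.74%. The promoters of Hist1h3c and Hist1h4d are shown because these members moved in opposite directions with age in WT. Capitals mark CCAAT and TATAAA on either strand.
Hist1h3c (chr13:23745472-23745771, minus strand): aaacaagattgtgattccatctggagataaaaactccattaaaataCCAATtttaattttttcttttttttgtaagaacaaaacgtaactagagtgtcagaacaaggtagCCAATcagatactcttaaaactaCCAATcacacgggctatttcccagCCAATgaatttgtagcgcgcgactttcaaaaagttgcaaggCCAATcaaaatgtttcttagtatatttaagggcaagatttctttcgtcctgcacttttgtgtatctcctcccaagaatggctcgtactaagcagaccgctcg
Hist1h4d (chr13:23581318-23581617, plus strand): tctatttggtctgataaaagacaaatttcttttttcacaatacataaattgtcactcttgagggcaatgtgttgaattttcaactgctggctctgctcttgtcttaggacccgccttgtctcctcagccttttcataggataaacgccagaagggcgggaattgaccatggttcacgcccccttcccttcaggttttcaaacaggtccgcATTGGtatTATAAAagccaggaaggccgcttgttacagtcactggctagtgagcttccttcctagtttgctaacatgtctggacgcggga
These are matches of letters, and no binding was measured.

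Members of a type share much of their sequence, which limits how reads can be assigned to 1 gene. For each member the share of its 50-base windows found in no other gene's transcripts was computed. The windows are those of its longest GENCODE vM21 transcript, a coding one where there was one. Some of these run far past the RefSeq length, which can raise the share. Hist1h2ac has 2482 against 487 bases (85.9% unique) and Hist1h1d 7425 against 776 (97.8%). A high share therefore need not hold for the histone message itself. It was over 60% for 23 members, 20 to 60% for 27 and under 20% for 15. Hist2h2aa2 and Hist2h3c1 had no such window, Hist1h2ao had 6.50%, Hist2h2aa1 10.6% and Hist1h3h 6.08%, and their counts are uncertain for that reason. Hist1h1a, Hist1h1b and Hist2h2be had 100%. The gene model of Hist1h2be overlaps that of Hist1h1e on the same strand, so reads there could be counted for either. Hist2h3c1 and Hist2h2aa1 overlap the gene model Gm20634, which held 100% and 89.4% of their windows. Hist2h2bb overlaps Gm42743, which held 53.6% of its windows.

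The replication-dependent histone genes together made up 295 to 652 CPM of a library, and every group's range overlapped that of WT week 3. Levels below are CPM on library totals scaled by edgeR's TMM factors, as mean ± SD. All members summed to 438.5 ± 69.5 CPM in WT week 3 (n = 10), 422.5 ± 60.6 in WT week 8 (n = 10) and 422 ± 39.6 in WT week 24 (n = 10). In NLGF they summed to 469 ± 43.6 in week 8 (n = 10), 448 ± 47.6 in week 24 (n = 10), 386 ± 52.0 in the 3 other libraries of week 3 and 529 ± 77.3 in the 7 deep ones. The range of WT week 3 was 303 to 516 CPM. The lowest 2 sums of all 60 libraries, 295 and 303 CPM, were those of WT week 8 female 1 and WT week 3 male 5, both among the libraries with little Rn7sk.

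H4 genes held the largest share of these counts and H2A genes the smallest in every group. H4 took 47.1% ± 2.36 of the summed CPM in WT week 24, H2B, the partner of H2A in the nucleosome, 21.7% ± 1.56, H1, the linker histone, 19.3% ± 2.17, H3, the partner of H4, 7.22% ± 0.434 and H2A 4.68% ± 0.408 (n = 10). These shares are of counts and are not corrected for gene length. The H1 share was 25.7% ± 2.61 in WT week 3 and 20.8% ± 1.65 in WT week 8. The H3 share was 6.80% ± 1.44 in WT week 3, 8.12% ± 1.41 in the 3 other NLGF libraries and 9.49% ± 0.681 in the 7 deep ones. The highest WT library of that age had 8.63%, and the 7 deep libraries, at 8.86% or more, and 2 of the 3 others, at 8.86% and 9.01%, lay above it. The exception, at 6.49%, was NLGF week 3 male 1, which has little Rn7sk. The highest WT library of week 8 had 9.02%. The summed H3 level was 30.4 ± 9.31 CPM in WT week 3, 31.5 ± 8.15 in the 3 others and 50.3 ± 8.87 in the deep libraries. The summed H4 level was 187 ± 21.6, 147 ± 33.9 and 242 ± 47.1 CPM in the same order.

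**Figure D1:**
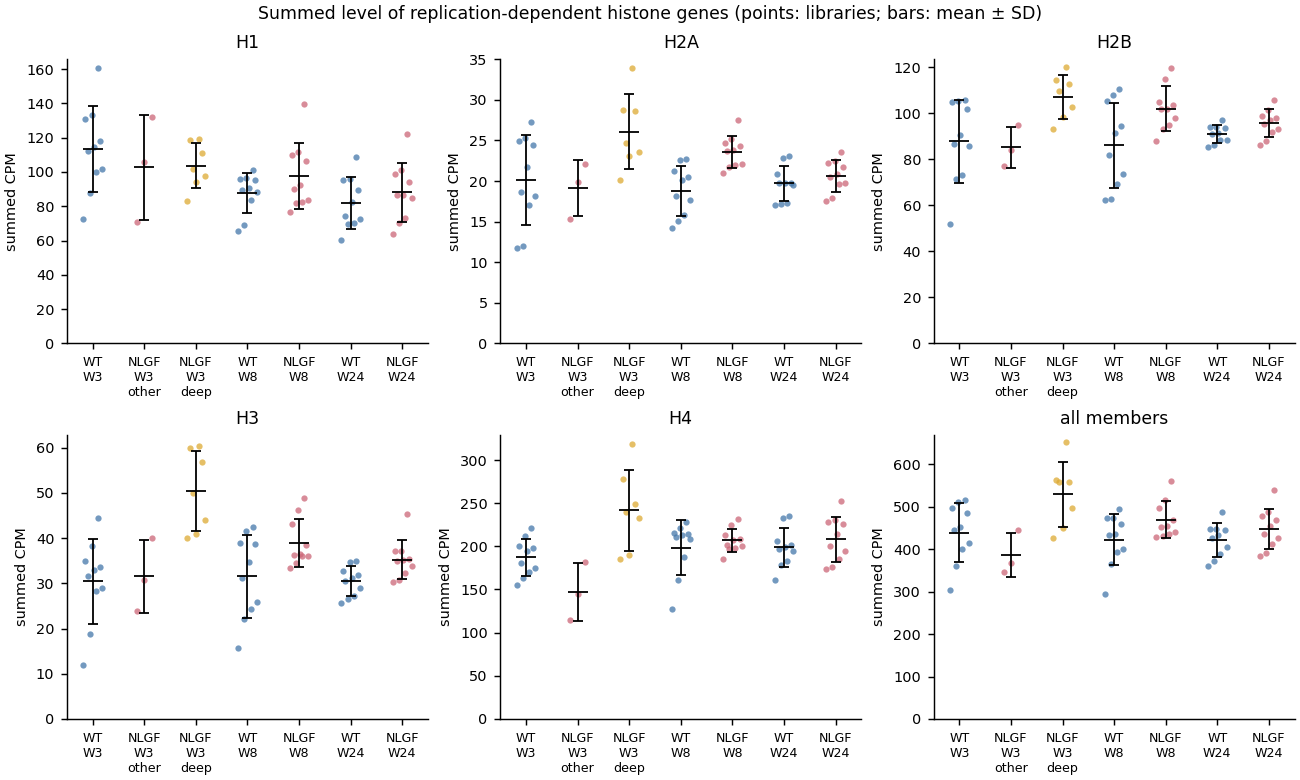
Summed CPM of the members of each histone type and of all members, on a linear axis from 0. Each point is a library, the bar gives mean ± SD, and the groups are WT (blue), NLGF (red) and the 7 deep NLGF libraries of week 3 (yellow). H4 averaged 147 to 242 CPM and H2A 18.8 to 26.1, and the deep libraries have the highest mean for H2A, H2B, H3 and H4 but not for H1.

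Levels differed widely between members of a type. Per 1000 bases of RefSeq length, for members with a RefSeq span under 1000 bases, the mean level over 60 libraries was highest for Hist1h4d, at 133.8 CPM per kb. The annotation used for counting is not given in the sources used here, and this order depends on the gene length. With GENCODE vM21 transcript lengths for the same members, Hist1h4h came first at 70.9 CPM per kb, then Hist2h2bb at 53.5, Hist1h4d at 47.3 and Hist1h4f at 46.1. By RefSeq length, next after Hist1h4d came the H4 genes Hist1h4h at 76.6 and Hist1h4c at 67.6, the H1 genes Hist1h1e at 51.9 and Hist1h1c at 48.3, and the H4 genes Hist1h4f at 47.1 and Hist2h4 at 46.6. The H2B genes Hist2h2bb, at 41.4 CPM per kb, and Hist3h2ba, at 37.1, stood outside the Hist1 cluster. Among H3 genes Hist1h3e had 11.5 CPM per kb and among H2A genes Hist2h2ac had 10.5. The spread between libraries was often as large as the steps in this order. In WT week 24 Hist1h1e had a median of 31.99 CPM (25.5 to 48.8) and Hist1h1c 30.15 (21.8 to 40.0), and these ranges overlapped.

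**Figure D2:**
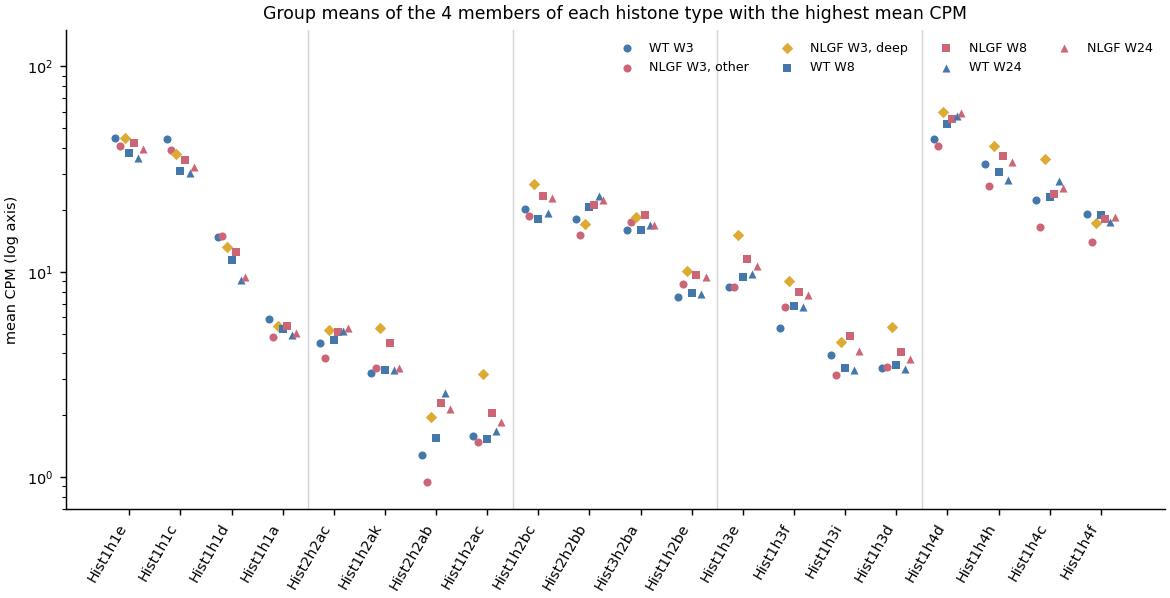
Mean CPM in each of the 7 groups, on a log axis, for the 4 members of each type with the highest mean CPM over all libraries. Points are group means: circles week 3, squares week 8, triangles week 24, WT blue, NLGF red, and yellow diamonds the deep libraries. The 7 group means of Hist1h1d lie between 9.09 CPM (WT week 24) and 14.96 (the 3 other NLGF libraries of week 3), and those of Hist1h4d between 41.0 (the same 3 libraries) and 59.8 (the deep libraries).

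Between weeks 3 and 24 in WT, 9 members fell and 3 rose (55 members tested, edgeR's quasi-likelihood test with Benjamini-Hochberg adjustment over all genes). Of all 16844 genes tested, 11.3% fell and 10.6% rose. In either direction 12 of 55 members were called, near the share of all genes, 21.9%. The linker histone genes Hist1h1b, Hist1h1c and Hist1h1d, the H2A genes Hist1h2ab and Hist1h2af, the H2B genes Hist1h2bk, Hist1h2bl and Hist1h2bn and the H3 gene Hist1h3c fell. The H4 gene Hist1h4d, the H2A gene Hist2h2ab and the H2B gene Hist2h2bb rose. The median log2 change over tested members was -0.14, against 0.01 over all genes tested. In bulk RNA, fewer cells of a type and less RNA per cell cannot be told apart.

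Hist1h3c, which codes for an H3 protein, showed the smallest p of any member. It ranged from 0.912 to 2.35 CPM in WT week 3, with a median of 1.33, and from 0.152 to 0.663 in week 24, with a median of 0.42. These ranges did not touch, and the 10 libraries of week 8 lay between and across them at 0.436 to 1.53. The log2 change from week 3 to 24 was -1.88 (SE 0.241, adjusted p = 6.61e-07). It was the only one of the 12 called members whose groups did not overlap (8.33%), against 13.1% of all genes called. It was also the only one of the 55 tested members, against 2.87% of all genes tested. NLGF libraries had the values 1.64, 1.91 and 2.07 CPM in the 3 other libraries of week 3, and medians of 1.01 in week 8 and 0.667 in week 24.

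All 5 H1 genes had lower fitted levels in week 24 than in week 3, with a median log2 change of -0.54, and 3 passed the test. H1 binds the linker DNA between nucleosomes. Hist1h1b went from a median of 3.44 CPM (1.93 to 5.25) in week 3 to 1.69 (1.26 to 2.62) in week 24, a log2 change of -1.02 (SE 0.170, adjusted p = 4.12e-05). Hist1h1d went from 14.3 CPM (8.58 to 21.7) to 8.77 (7.68 to 11.5), and fell by 0.71 on the log2 scale (adjusted p = 4.74e-05). Hist1h1c went from 42.5 CPM (26.6 to 65.7) to 30.15 (21.8 to 40.0), and fell by 0.54 (adjusted p = 0.00161). In each of these the highest libraries of week 24 reached into the range of week 3. Hist1h1e, with 44.8 ± 9.92 CPM in week 3 and 35.7 ± 7.35 in week 24, and Hist1h1a, with 5.88 ± 1.21 and 4.90 ± 1.41, did not pass.

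Core histone genes that fell stood at low levels. The H2A gene Hist1h2af went from a median of 0.889 CPM (0.349 to 1.69) to 0.247 (0.133 to 0.501), a log2 change of -1.78 (adjusted p = 3.29e-05), and 20.3% of its windows were unique. The H2A gene Hist1h2ab fell by 0.59 on the log2 scale (adjusted p = 0.019). Among H2B genes, Hist1h2bl fell by 1.01 (adjusted p = 0.0234), Hist1h2bk by 0.85 (adjusted p = 0.0263) and Hist1h2bn by 0.73 (adjusted p = 0.0253). The share of unique windows was 17.2% for Hist1h2bl and 13.6% for Hist1h2bn. Without WT week 3 male 5 and WT week 8 female 1, the libraries with little Rn7sk, 18 of 56 members were called, 14 lower and 4 higher, while the share of all genes called went from 21.9% to 24.9%.

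Of the 3 that rose, Hist1h4d stood highest. It went from a median of 45.5 CPM (25.4 to 57.4) to 57.7 (46.3 to 70.0), a log2 change of 0.38 (SE 0.123, adjusted p = 0.0247). Hist2h2bb rose by 0.38 (adjusted p = 0.0183), from 18.1 ± 3.62 to 23.5 ± 4.18 CPM. Hist2h2ab rose by 0.98 (adjusted p = 0.00345), from 1.28 ± 0.756 to 2.56 ± 0.688 CPM. All groups overlapped. With all 60 libraries in 1 fit none of the 3 passed, with adjusted p of 0.387 for Hist1h4d, 0.207 for Hist2h2bb and 0.0514 for Hist2h2ab, while 8 members were lower. Of all genes 11.7% were called in that fit. The 9 that fell all lie in the Hist1 cluster, where 42 of 52 members were tested. Of the 10 Hist2 members, all tested, 2 rose and none fell, 5 having a positive fitted change. Of 37 tested members with a stem-loop in their model 5 fell and 1 rose, and of 18 without, 4 fell and 2 rose.

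**Figure D3:**
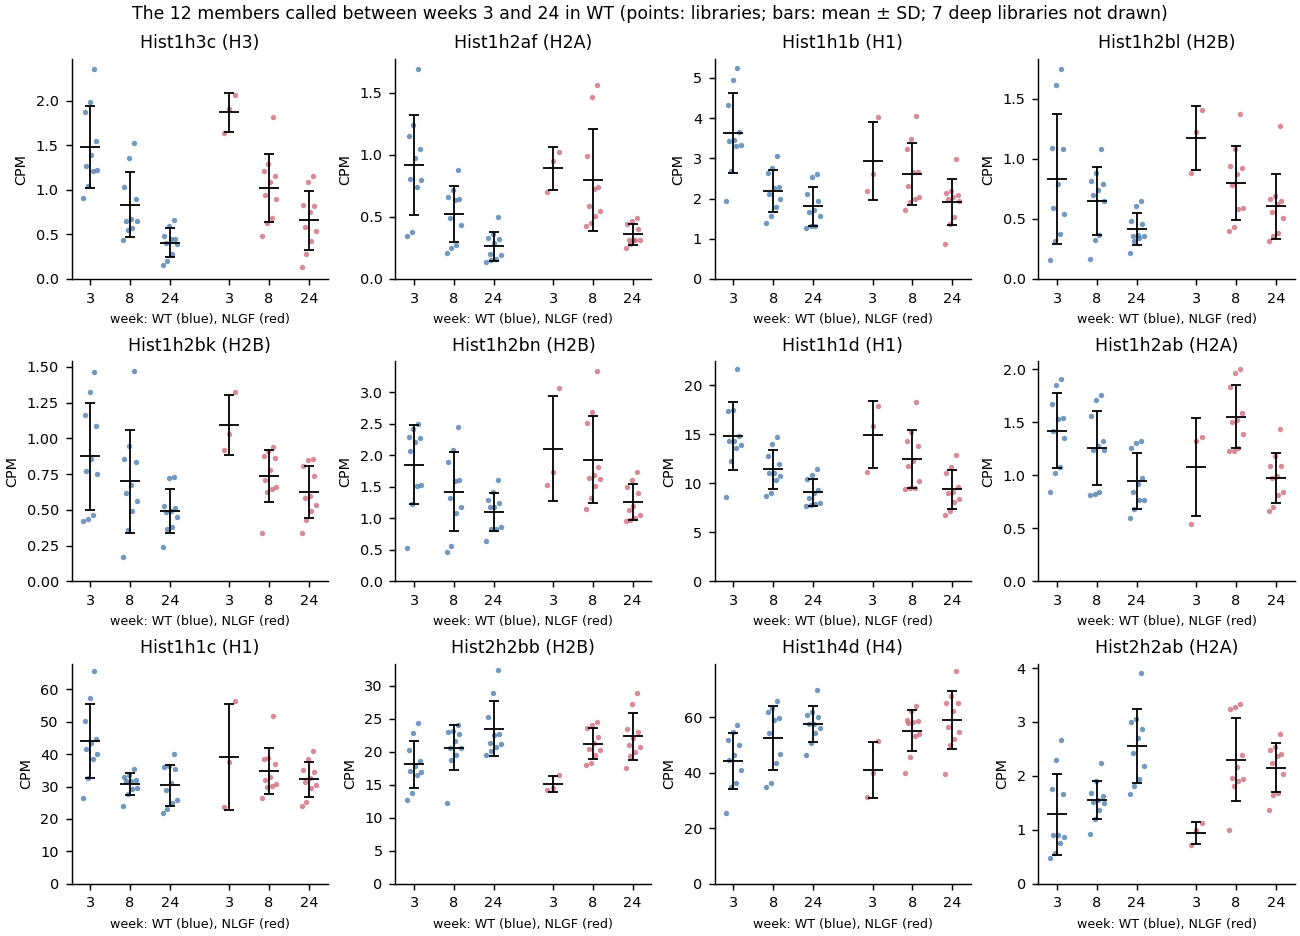
CPM of the 12 members called between weeks 3 and 24 in WT, at weeks 3, 8 and 24, on linear axes from 0. Points are libraries, bars mean ± SD, WT blue and NLGF red, and the deep libraries are not drawn. Only for Hist1h3c do the WT points of week 3, at 0.912 CPM or more, lie wholly above those of week 24, at 0.663 or less.

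Between weeks 3 and 8 in WT, 3 members fell and none rose of 55 tested, while 4.51% of all genes fell and 2.63% rose. Called members were no larger a share than the 7.14% of all genes called in either direction. The 3 are among the 12 called between weeks 3 and 24. They were Hist1h1b (log2 change -0.73, adjusted p = 0.00497), Hist1h1c (-0.51, adjusted p = 0.00723) and Hist1h3c (-0.82, adjusted p = 0.0206). The ranges overlapped in all 3. Leaving out 1 library at a time gave 2 to 6 called members, and leaving out WT week 3 male 5, which has little Rn7sk, gave 6. Without both WT libraries with little Rn7sk 6 were called as well, while the share of all genes called went from 7.14% to 11.7%. Between weeks 8 and 24 in WT no member passed by edgeR's test (smallest adjusted p = 0.0596), with 8 of 55 at an unadjusted p under 0.05, against 11.5% of all genes, and DESeq2 called 1. Of all genes 0.279% passed by edgeR's test and 0.653% by DESeq2.

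Other genes of the histone pathway and markers of dividing and young cells moved over the same ages in WT. The lists were chosen with earlier results of these data known. Of 29 tested genes of the cell cycle and DNA replication, 15 fell and 1 rose between weeks 3 and 24. Top2a, the topoisomerase of dividing cells, changed by -2.19 (adjusted p = 1.01e-11), the proliferation marker Mki67 by -1.83 (adjusted p = 1.24e-10) and the centromere protein gene Cenpf by -1.94 (adjusted p = 1.5e-09), on the log2 scale. The list summed to 147 to 192 CPM in WT week 3 and 135 to 148 in week 24. Of 5 markers of oligodendrocyte precursors all fell, with a summed level of 257 to 428 CPM in week 3 and 152 to 173 in week 24. Of 6 markers of immature neurons 4 fell, with sums of 106 to 219 and 78.4 to 125 CPM. Of 5 blood genes all fell, from sums of 149 to 548 to sums of 55.8 to 184 CPM. Every marker of the last 3 lists had a group mean above 0 at each age, and among the lowest was Eomes, a marker of neuronal progenitors, which was at 0 in at least 1 library of WT week 24. Their part in the change of the histone genes was not tested.

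Replacement variants are histones made outside S phase from polyadenylated transcripts. Of 11 tested, 4 fell between weeks 3 and 24 in WT, among them H1f0, the linker histone of resting cells (-0.47, adjusted p = 1.28e-06), and H3f3b, which codes for H3.3 (-0.32, adjusted p = 0.00512), while H1fx rose (0.49, adjusted p = 0.00584). Of 19 tested genes of histone messenger RNA processing, 4 fell and none rose, among them Lsm11, a protein of the U7 particle (-0.57, adjusted p = 0.011). Of 19 tested histone chaperones, 4 fell and 1 rose. The H1 and H3-H4 chaperone Nasp changed by -0.77 (adjusted p = 1.83e-06), and the chromatin assembly factor subunits Chaf1a and Chaf1b by -0.44 (adjusted p = 0.00132) and -1.10 (adjusted p = 0.00206). All values are log2 changes.

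In NLGF, 11 members were higher and none lower in week 8 than in the 3 other libraries of week 3 (60 tested), while 7.19% of all genes were higher and 7.42% lower. Of the 11, 7 were H4 genes. None of the 5 tested H1 genes passed (smallest adjusted p = 0.406). Hist1h4h had 20.6, 24.9 and 33.2 CPM in week 3 and 32.8 to 41.4 in week 8, with a median of 36.8, a log2 difference of 0.49 (SE 0.106, adjusted p = 0.00388). Hist2h4 had 8.79, 12.1 and 14.7 CPM against 14.3 to 21.6, a log2 difference of 0.61 (adjusted p = 0.00401). Hist1h4k and Hist2h2bb were the only ones of the 11 whose groups did not overlap (18.2%), against 40.3% of all genes called. Among tested members groups did not overlap in 3 of 60, against 6.97% of all genes tested. Rn7sk averaged 4487 CPM in these 3 libraries of week 3 and 7272 in week 8. Without NLGF week 3 male 1, which has little Rn7sk, 2 libraries of week 3 remain. No member then passed by edgeR's test, with 13 of 62 at an unadjusted p under 0.05 against 16.9% of all genes, and the share of all genes called went from 14.6% to 2.07%. The median log2 difference over members was 0.24 without that library and 0.22 with it. With the 7 deep libraries added to week 3, 4 members of all types were higher and 4 lower, while 10.4% of all genes were called. Of the 7 H4 genes, none passed in that fit: Hist1h4b, Hist1h4c, Hist1h4i and Hist1h4k then had negative fitted differences, and Hist1h4h, Hist2h4 and Hist4h4 positive ones of 0.01, 0.18 and 0.12.

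Between weeks 8 and 24 in NLGF, 3 of 60 tested members fell and none rose, while 0.651% of all genes fell and 1.51% rose. Hist1h2af changed by -1.12 on the log2 scale (adjusted p = 0.0117), from 0.800 ± 0.411 to 0.358 ± 0.0848 CPM. Hist1h2ab changed by -0.66 (adjusted p = 0.0341), from 1.55 ± 0.295 to 0.979 ± 0.236 CPM, and the H2B gene Hist1h2bf by -0.58 (adjusted p = 0.0313), from 2.21 ± 0.412 to 1.48 ± 0.432 CPM. The groups overlapped in all 3. None of the 5 tested H1 genes passed (smallest adjusted p = 0.141). Leaving out NLGF week 8 female 5 left 1 call.

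At week 24 in NLGF, 1 of 52 tested members was higher than in WT and none lower, while 0.8% of all 16508 genes were higher and 0.0787% lower. This was Hist1h3h, an H3 gene, which had a median of 1.58 CPM (1.11 to 1.72) in NLGF and 0.97 (0.619 to 1.37) in WT. The groups overlapped, and the log2 difference was 0.53 (SE 0.126, adjusted p = 0.0429). The call was lost in 4 of 7 alternatives, with adjusted p up to 0.508, and with 17 of the 20 libraries left out in turn, and 6.08% of its windows were unique. Of the 52 members 41 had a positive fitted difference, with a median of 0.10, against 49.8% of all genes with a positive difference. An unadjusted p under 0.05 was found for 15 of the 52, against 8.99% of all genes. By type the median was 0.23 for H3, 0.18 for H2B, 0.09 for H1, 0.07 for H4 and 0.05 for H2A. Beside this, Mki67 was higher by 0.57 (adjusted p = 0.0157), the only 1 called of 25 tested genes of the cell cycle and DNA replication. The median log2 difference of that list was 0.04. Of 5 microglia markers 3 were higher, the list summing to 266 to 342 CPM in NLGF and 235 to 262 in WT. Their part in the result was not tested.

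At week 8 no member differed between genotypes by edgeR's test (55 tested, smallest adjusted p = 0.633), with 12 at an unadjusted p under 0.05, against 7.83% of all genes, and DESeq2 called none. The share of all 16494 genes that passed was 0%. Fitted differences were positive for 47 of the 55, with a median of 0.24 against -0.01 over all genes, and for all 11 tested H2A genes, with a median of 0.40. Without WT week 8 female 1, which has the lowest Rn7sk, no member passed, the median was 0.21, and 6 had an unadjusted p under 0.05, against 8.16% of all genes. The summed H2A level was 18.8 ± 3.09 CPM in WT and 23.6 ± 1.98 in NLGF, with ranges of 14.2 to 22.7 and 21.0 to 27.6.

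At week 3 the answer depended on which NLGF libraries were used. With the 3 other libraries no member passed by edgeR's test (59 tested, smallest adjusted p = 0.134, 11 at an unadjusted p under 0.05), as for 0% of all 17187 genes. DESeq2 called 2 members and 0.535% of all genes. Without NLGF week 3 male 1 and WT week 3 male 5, the libraries with little Rn7sk, 1 member was lower, while 0.449% of all genes were called. With all 3 other libraries, fitted differences of H4 genes had a median of -0.48. Of the 13 H4 genes, 9 had an unadjusted p under 0.05, against 11 of the 59 members and 11.4% of all genes. Without the libraries with little Rn7sk, 7 of 60 members had an unadjusted p under 0.05, against 15.7% of all genes. H4 genes were not counted apart in that setting. The H4 sum was 115, 145 and 182 CPM in these libraries and 155 to 221 in WT, and Rn7sk 2852, 4810 and 5800 CPM against 3288 to 8883.

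With the 7 deep libraries 22 of 57 tested members were higher than in WT and 2 lower, while 9.57% of all 17084 genes were higher and 11.9% lower. They were 5 H2A genes, 4 H2B, 6 H3 and 7 H4 among the higher, the 2 lower being the H2A genes Hist2h2aa1 and Hist2h2aa2. None of the 5 H1 genes passed, all having a negative fitted difference, with a median of -0.20. Without WT week 3 male 5, which has little Rn7sk, 23 were called, 21 higher and 2 lower. With no filter on low counts 28 of 65 were called, 21 higher and 7 lower, and 10.6% of all genes. With all libraries in 1 fit 30 of 62 were called, 25 higher and 5 lower, and 22.5% of all genes. Depth, kind of library and genotype cannot be told apart here.

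The H2A gene Hist1h2ae had the smallest p. It had 1.61 to 2.44 CPM in the deep libraries, with a median of 2.25, and 0.479 to 1.16 in WT, with a median of 0.724, so the groups did not overlap. The log2 difference was 1.36 (SE 0.187, adjusted p = 3.9e-05). In the 3 other NLGF libraries it stood at 0.970, 1.02 and 1.07 CPM, within the WT range, and its log2 difference there was 0.32 (adjusted p = 0.711). Hist1h2ac, with 2.43 to 4.56 CPM against 0.429 to 2.33, and Hist1h3h, with 1.97 to 3.10 against 0.174 to 1.77, were the other called members without overlap. These 3 made 12.5% of the called members, against 19.1% of all genes called. Among tested members groups did not overlap in 3 of 57, against 4.11% of all genes tested. The H4 gene Hist1h4c had 22.4 ± 3.92 CPM in WT and 35.5 ± 7.72 in the deep libraries, a log2 difference of 0.63 (adjusted p = 0.0017).

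Hist2h2aa1 and Hist2h2aa2, a near-identical H2A pair, went the other way. Hist2h2aa1 had 0.278 to 0.748 CPM in the deep libraries and 0.590 to 2.48 in WT, a log2 difference of -1.62 (SE 0.242, adjusted p = 9.97e-05). In the 3 other NLGF libraries it had 1.06, 1.48 and 1.82 CPM, a log2 difference from WT of -0.11 (adjusted p = 0.915). Hist2h2aa2 had 0.733 ± 0.190 CPM in the deep libraries and 2.04 ± 0.732 in WT. Both have few unique windows and overlap other gene models, so their counts depend on how shared reads were assigned, a step that the sources used here do not give.

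**Figure D4:**
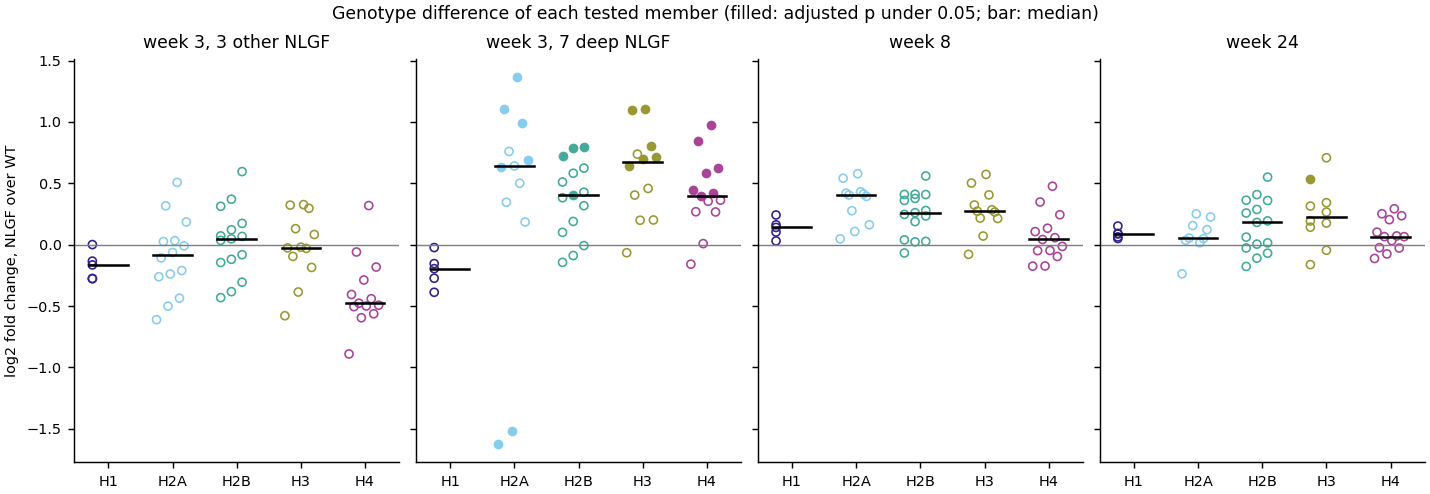
Log2 fold change of NLGF over WT for each tested member, by histone type, in 4 comparisons. Filled points passed an adjusted p of 0.05, open points did not, and the bar is the median of the type. Filled points are 24 with the deep libraries, 1 at week 24 and none in the other two panels.

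Setting the 7 deep libraries against the 3 other NLGF libraries of the same age compares kinds of library within a genotype. Of 61 tested members 16 were higher and 3 lower in the deep libraries, while 6.51% of all genes were higher and 7.82% lower. Hist1h4k had 11.4 to 22.95 CPM in the deep libraries and 5.82 to 7.10 in the others, a log2 difference of 1.30 (SE 0.223, adjusted p = 0.0053). The H2B gene Hist1h2bc had 23.7 to 30.4 CPM against 18.4 to 19.2, a log2 difference of 0.50 (adjusted p = 0.00615). Hist1h2ao had 0 to 0.0726 CPM against 0.212 to 0.620, an adjusted p of 0.00726, at levels of a few counts per library. Hist2h2aa1 and Hist2h2aa2 were also lower, by log2 differences of -1.49 and -1.75. Groups did not overlap in 20 of the 61 members, against 15.4% of all genes. Among called genes, this held for 18 of the 19 members and for 76.3% of all genes called. Without NLGF week 3 male 1, which has little Rn7sk, 2 members were called, the share of all genes called went from 14.3% to 1.65%, and the median log2 difference over members from 0.50 to 0.34.

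In both comparisons with the deep libraries, the range of differences was widest among members with under 20% unique windows. Between weeks 3 and 24 in WT it was wider for those with 20 to 60%, from -1.88 to 0.38, than for those with under 20%, from -1.01 to 0.45. With the deep libraries against WT, the 10 tested members with under 20% unique windows ran from -1.62 to 1.11 on the log2 scale, 5 higher and 2 lower. The 25 with 20 to 60% ran from -0.09 to 1.36, 11 higher and none lower. The 22 with over 60% ran from -0.39 to 0.99, 6 higher and none lower, with a median of 0.23. Short noncoding RNAs moved beside them, since Rny1 averaged 9.17 CPM in the deep libraries against 0.497 in WT, and Rny3 5.09 against 0.164. Choroid plexus markers summed to 149 to 10640 CPM in the deep libraries and 42.1 to 4475 in WT, with none of 7 called, and 3 of 5 microglia markers were higher. Their part in the result was not tested.

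**Figure D5:**
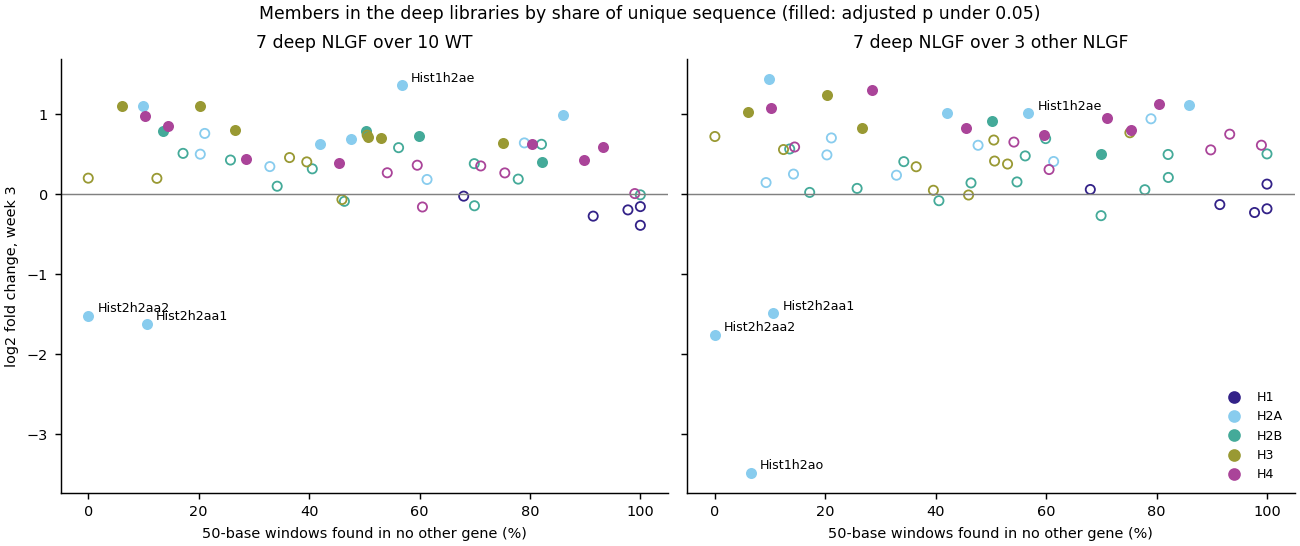
Log2 fold change at week 3 against the percent of 50-base windows found in no other gene, for the 7 deep NLGF libraries over WT (left) and over the 3 other NLGF libraries (right). Points are members coloured by type, filled where the adjusted p was under 0.05. The called members that were lower, Hist2h2aa1, Hist2h2aa2 and, on the right, Hist1h2ao, all have under 20% unique windows.

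Whether the genotype difference changed with age was tested as an interaction over the 53 libraries without the deep ones, and no member of 61 passed by edgeR's test. For week 24 minus week 8 the smallest adjusted p was 0.787, and 0.325% of all genes passed. An unadjusted p under 0.05 was found for 1 member and for 4.07% of all genes. For week 8 minus week 3 the smallest adjusted p was 0.352, and 0% of all genes passed, with 13 members and 11.5% of all genes at an unadjusted p under 0.05. Without the libraries with little Rn7sk, 7 of 61 members and 10.1% of all genes had an unadjusted p under 0.05. For week 24 minus week 3 the smallest adjusted p was 0.226, and 0.0799% of all genes passed, with 8 members and 11.7% of all genes at an unadjusted p under 0.05. Without the libraries with little Rn7sk, these were 9 of 61 members and 15.9% of all genes. DESeq2 called none in any of the 3.

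The authors' deposited table of genotype differences lists 20 members at week 3, 17 higher and 3 lower in NLGF, among 2628 genes. It holds only genes with an adjusted p of at most 0.06, so no share over all genes tested can be given. With all 20 libraries of week 3, edgeR called 3 of 57 tested members here, 2 higher and 1 lower, and 3.78% of all genes. In the authors' deposited table Hist1h2ae has a log2 fold change of 1.09 (adjusted p = 8.96e-06), Hist1h2ao -1.72 (adjusted p = 5.6e-05) and Hist2h2aa1 -0.83 (adjusted p = 0.000902). These fold changes may have been computed otherwise than those given above. No H1 gene is among the 20. The authors' deposited table lists none of the members among its 4 genes of week 8 or its 156 of week 24.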

How the data were processed

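Per the labels' protocols, libraries were built from total RNA of 60 hippocampus samples with ribosomal RNA removed. The authors deposited a table of whole-number counts per gene symbol. Their submitters' processing notes name FastQC, STAR, edgeR, DESeq2 and the mm10 build. The sources used here do not give the counter, annotation, strand setting or treatment of reads that match several genes, and the last of these bears on near-identical histone genes. The authors also deposited a table of NLGF over WT at each week whose columns, per the file headers, hold mean normalized counts (a signal averaged over samples), log2 fold changes with standard errors, and p-values with adjusted p-values. It held only genes with an adjusted p of at most 0.06.

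Each library was mapped to genotype, week and sex by its title. Counts were tested with edgeR 4.0.16 in R 4.3.3 (TMM scaling, filterByExpr with a minimum count of 10, robust glmQLFit and glmQLFTest, 2-sided). The p-values were adjusted by Benjamini-Hochberg over all genes tested, and called means an adjusted p under 0.05. Sex was a covariate. Genotype was compared within each week, and age within genotype in 1 fit over the 3 weeks. Interactions were fitted over 53 libraries. The 7 NLGF libraries of week 3 with totals over 50000000 counts were fitted apart. The method was tested on simulated data. The members and the lists were chosen with earlier results of these data known. Values were named for the 4 members of each type with the highest mean CPM, for members called (where over 20 were called, at most 10 in each direction by p), for Hist1h2ae and Hist2h2aa1 at week 3, and for up to 3 called genes of each other list. Alternatives were RLE scaling, DESeq2 1.42.0, other filters, no sex term, a replicate block, all libraries in 1 fit, and each library left out. Sequences come from GENCODE vM21 transcripts and RefSeq promoters (GRCm38.p6). All 65 members matched a RefSeq entry. A level of 0.1 CPM is a few counts in a library, so counting error is large for the lowest members.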

Additional observations from a re-analysis of the deposited data

Results flagged for a closer look

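Within groups of 4 to 10 libraries, 8 of 156 sets of values had a highest or lowest library whose gap to the next was large for the range by Dixon's test. Chance alone flags about 1 in 20 such groups. The summed H3 level of NLGF week 24 male 2 was 45.27 CPM, the next 37.19, and the same library had Hist1h3e at 15.83 CPM, the next 11.95. Hist1h1c stood at 51.77 CPM in NLGF week 8 female 5, the next 38.83. Hist1h1a stood at 8.208 CPM in WT week 24 male 2, the next 5.766. Hist1h2ak stood at 4.901 CPM in WT week 24 female 4, the next 3.479. On the low side, Hist2h2bb was at 12.21 CPM in WT week 8 female 1, the next 18.84, and Hist1h2be at 3.863 CPM in WT week 3 male 5, the next 6.98. Both of these libraries had little Rn7sk. Hist3h2ba was at 12.76 CPM in WT week 24 female 2, the next 15.92.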

How the results depend on the processing

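Of 61 called values of named members, 19 passed in every alternative other than leaving out a library and 25 with each library left out in turn. Of 108 alternative counts of called members, 87 lay within 1.5 times the main count. Summed levels stayed within 1 SD. The rest follow, and the cause was not tested.

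Percents in brackets are the share of all genes called in the same setting. For NLGF over WT at week 24 the count went from 1 to 0 with no filter on low counts (0.474%) and no sex term (0.83%). It was also 0 with the replicate block (0.878%) and with all libraries in 1 fit (0.751%), and 0 to 1 with a library left out. At week 3 without the deep libraries it went from 0 to 2 by DESeq2 (0.535%) and 1 with no filter (0.0138%). It was 3 with all 20 libraries of the week (3.78%) and 1 without the libraries with little Rn7sk (0.449%). That last setting was chosen after seeing the data. It gave 2 for deep over other NLGF libraries, which ran from 2 (without NLGF week 3 male 1) to 21 with a library left out. For week 8 over week 3 in WT it gave 6 (11.7%), all libraries in 1 fit gave 1 (4.14%), and leaving out a library 2 to 6. For week 24 over week 8 in WT the count went from 0 to 1 by DESeq2 (0.653%) and with the replicate block (0.172%). It was also 1 without libraries with little Rn7sk (0.26%), and 0 to 1 with a library left out. For week 24 over week 3 in WT it was 18 without libraries with little Rn7sk (12 with them), and 9 to 15 with a library left out.

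For week 8 over week 3 in NLGF it was 0 with all libraries in 1 fit (1.39%). It was also 0 without the library with little Rn7sk (2.07%), and 0 to 15 with a library left out. With the deep libraries added, 4 log2 differences reversed, to -0.21 for Hist1h4b, -0.30 for Hist1h4c, -0.12 for Hist1h4i and -0.14 for Hist1h4k. For week 24 over week 8 in NLGF it was 5 by DESeq2 (3.4%) and 1 with all libraries in 1 fit (0.952%). It was 1 with the deep libraries (1.9%) and 1 to 4 with a library left out. With the deep libraries the interactions gave 1 (week 8 minus week 3, 0.18% of all genes) and 2 (week 24 minus week 3, 1.15%).

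Same-numbered libraries of the 2 genotypes did not deviate together throughout: their correlations ran from -0.205 to -0.128 in 2 pairs of week 3, -0.173 to 0.291 in 10 pairs of week 8 and -0.074 to 0.562 in 10 of week 24. They were over 0.1 in 3 pairs of week 8 and 6 of week 24. The numbers were not taken as pairs in the main fits, and whether same-numbered libraries of week 24 shared a step was not tested. With the replicate block the deep libraries over WT gave 16 called members (10.6% of all genes) in place of 24. Week 24 over week 3 in WT gave 13 (19.5%) in place of 12, and week 8 over week 3 in NLGF 8 (12.5%) in place of 11. No paired analysis was possible for deep over other NLGF libraries because each number occurs once.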
